A study of Arabidopsis thaliana with 30 samples.

Results

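Seed of the Arabidopsis thaliana mutant lec1-1 at the mature green stage was set against wild-type seed at the later, post-mature green stage. The 4 arrays of this comparison were chosen by their labelled genotype and stage, out of 30 arrays in the series and 20 on the ATH1 GeneChip. Both genotypes are of the ecotype Ws-0 and grew under continuous light, and no treatment was given to either. Each group had 2 arrays, which the labels call biological replicates. The p-values measure only the spread between such samples. The question is whether the mutant, sampled at mature green, already had the RNA profile that wild-type seed has one stage later. Wild-type seed at mature green, with 2 arrays, is given beside them as the matched stage, and lec1-1 post-mature green seed, with 2 arrays, as the mutant's own later stage.

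LEC1 (LEAFY COTYLEDON1) encodes an NF-Y subunit that acts with other regulators in embryo development and seed maturation. Embryos that lack it are known to store less reserve protein and oil, to tolerate drying poorly and to show some features of leaves. In wild-type seed, maturation fills the embryo with storage proteins and oil bodies while it is still green. The last stage adds late embryogenesis abundant (LEA) proteins, which protect cells during drying, and the seed loses its chlorophyll. No probe set was named for LEC1 in the annotation used, so its own RNA was not analysed here and the genotype labels were not checked on the targeted gene.

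Signals below are linear intensities scaled to 500 on each array, and a signal under 100 was treated as near background. Whole seeds were measured, so fewer cells of a type and less RNA per cell cannot be told apart. The median signal of an array was 217.4 and 206.9 in lec1-1 mature green seed and 178.8 and 182.7 in wild-type post-mature green seed. The 20 highest probe sets held 5.97% and 4.49% of the total signal in lec1-1 mature green, against 8.22% and 8.57% in wild-type post-mature green. The correlation of log2 values between replicates was 0.949 in lec1-1 mature green and 0.933 in wild-type post-mature green, and 0.938 in wild-type mature green. The ratio of 3′ to 5′ signal of the actin control was 13.5 to 18.9 in lec1-1 mature green and 5.85 to 6.48 in wild-type post-mature green, and that of the GAPDH control was 4.70 to 6.83 in lec1-1 mature green and 2.63 to 4.46 in wild-type post-mature green. A second actin ratio was 4.34 to 8.44 in lec1-1 mature green and 2.35 to 2.38 in wild-type post-mature green. The first ubiquitin ratio was 5.03 to 6.36 in lec1-1 mature green and 4.42 to 4.61 in wild-type post-mature green. All these ratios were higher in lec1-1 without overlap. A second GAPDH ratio overlapped between the groups, at 1.96 to 2.03 in lec1-1 mature green and 1.73 to 2.15 in wild-type post-mature green. So did a second ubiquitin ratio, at 2.86 to 5.10 in lec1-1 mature green and 2.55 to 3.27 in wild-type post-mature green. The part of the control ratios in the results below was not tested.

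Both groups carried RNA of seed-specific genes. The cupin storage protein gene AT1G03890 had signals of 12216 and 12274 in lec1-1 mature green and 59682 and 66435 in wild-type post-mature green, against 17.3 and 10.9 in wild-type seedlings.

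By its whole profile, lec1-1 mature green seed lay nearest to lec1-1 post-mature green seed, with a Pearson correlation of 0.956 between the group means of log2(signal + 50) over 18459 probe sets. The correlation was 0.868 with wild-type mature green seed. It was 0.766 with wild-type post-mature green seed, close to the 0.768 with wild-type cotyledon-stage seed. The root mean square log2 difference was 1.17 from wild-type post-mature green and 0.87 from wild-type mature green. Across genes these are descriptions, since genes share the arrays and are not independent replicates.

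**Figure D1:**
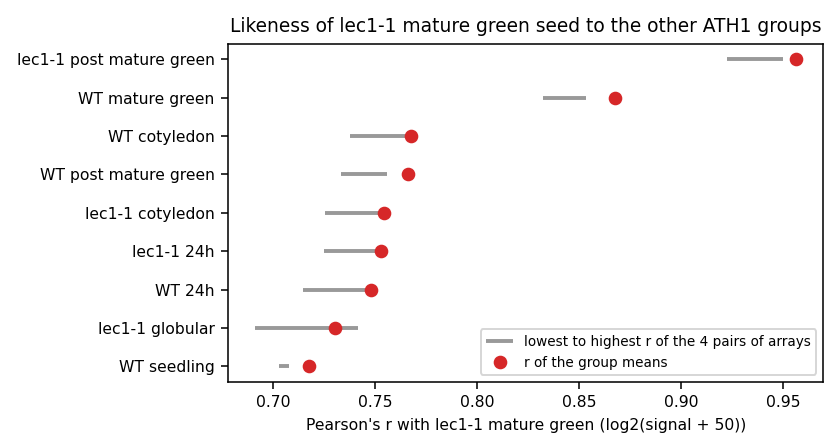
Pearson's r between lec1-1 mature green seed and each other ATH1 group, with group names down the page. Red points are the r of group means of log2(signal + 50) and grey lines run from the lowest to the highest r of the 4 pairs of single arrays; wild-type post-mature green, at 0.766, lies below wild-type mature green, at 0.868.

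Of the 18459 probe sets, 8309 passed limma's test at an adjusted p of 0.05 between lec1-1 mature green and wild-type post-mature green, which is 45%. They split into 4513 higher in lec1-1 (24.4%) and 3796 lower (20.6%). At least a 2-fold difference was reached by 3152 of the higher (17.1% of all tested) and 2312 of the lower (12.5%). Among the 10408 probe sets that name 1 gene the shares were 22.8% and 20.5%. The median log2 difference over all probe sets was 0.00. The 95% interval of the difference lay inside 2-fold for 5720 probe sets (31%). In the same fit, 5297 probe sets (28.7%) differed between lec1-1 mature green and wild-type mature green, and 6529 (35.4%) between wild-type post-mature green and wild-type mature green. Between lec1-1 post-mature green and wild-type post-mature green 8142 differed (44.1%). These comparisons share arrays.

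**Figure D2:**
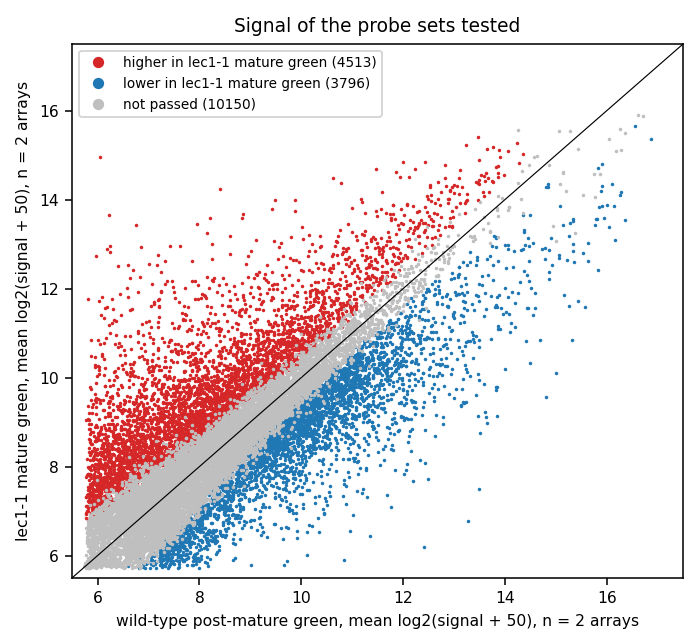
Mean log2(signal + 50) in lec1-1 mature green seed (vertical) against wild-type post-mature green seed (horizontal), 1 point per probe set, with the line of equality. Red points are the 4513 that passed the test and were higher in lec1-1, blue the 3796 that were lower, and grey did not pass.

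Of 7 tested storage protein genes 4 were lower in lec1-1 mature green seed than in wild-type post-mature green seed, where 20.6% of all probe sets were. The other 3 did not pass, and for 2 of them, AT1G07750 and AT2G28680, the 95% interval lay inside 2-fold. The median log2 difference was -1.75, and -0.87 with quantile normalization, under which 4 were again lower. PAP85, a vicilin-type storage protein, had signals of 14539 and 14947 in lec1-1 mature green and 70271 and 73838 in wild-type post-mature green. Both lec1-1 arrays lay below both wild-type arrays, and the log2 difference was -2.28 ± 0.27 (moderated standard error, as for every ± below, with n = 2 arrays a group; adjusted p = 1.02e-06). Wild-type mature green seed had 54521 and 44195, so PAP85 was lower in the mutant than in either wild-type stage. The cruciferin-type gene AT1G03890, whose signals are given above, differed by -2.36 ± 0.25 on the log2 scale, and the cupin gene AT2G28490 by -1.75 ± 0.23. AT4G36700, also a cupin gene, was at 2089 and 3497 in lec1-1 mature green, 15226 and 16795 in wild-type post-mature green and 32859 and 32901 in wild-type mature green. Set against wild-type mature green, 5 of the 7 were lower in lec1-1 and the other 2 did not pass, where 13% of all probe sets were lower and 15.7% higher.

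Of 12 listed oil body genes 4 were tested. All 4 were lower, with a median of -2.17, where 20.6% of all probe sets were lower. Quantile normalization made the median -1.49 with 3 lower. Oleosins are the small proteins that coat the oil bodies. AT3G01570, an oleosin gene, had 9493 and 15541 in lec1-1 mature green, against 56742 and 55684 in wild-type post-mature green (log2 difference -2.21 ± 0.35). The oleosin genes AT3G18570 and AT2G25890 differed by -2.66 ± 0.31 and -2.14 ± 0.38. OLEO3 differed by -1.53 ± 0.56, with an adjusted p of 0.0318, and no longer passed when any of the 4 arrays was left out (adjusted p 0.0645 to 0.149). AT2G25890 was at 4234 and 4833 in lec1-1 mature green and 6780 and 2228 in wild-type mature green, and that difference did not pass. Of enzymes of fatty acid synthesis, the acyl-ACP thioesterase genes FaTA and FATB were measured. FaTA was lower by -1.06 ± 0.22 and FATB higher by 0.71 ± 0.19, with an adjusted p of 0.0557 for FATB without the second lec1-1 array.

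The LEA genes were the largest group and were divided. Of 48 listed genes 33 were on the array and 29 were tested. In lec1-1 mature green 16 were lower than in wild-type post-mature green, 5 were higher and 8 did not pass, with a median log2 difference of -1.22. Over all probe sets 20.6% were lower and 24.4% higher, so higher LEA genes were not more common than higher probe sets in general. With an offset of 1 in place of 50 on the log scale, the LEA proteins had 6 lower and 4 higher. Against wild-type mature green, lec1-1 mature green had 12 LEA genes higher and 1 lower, with a median of 0.84. The shares of all probe sets in that comparison were 15.7% higher and 13% lower. Wild-type post-mature green against wild-type mature green had 21 higher and 3 lower, with a median of 1.99, where 16.3% of all probe sets were higher and 19.1% lower. The wild-type mature green arrays differed from each other on these genes: without the first the count against that stage was 15 higher and 1 lower, and without the second 9 higher and 1 lower.

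M10 is a LEA gene of the very late stage. Its signal was 168 and 5.4 in lec1-1 mature green and 11294 and 8541 in wild-type post-mature green, and 215 and 6.3 in wild-type mature green. The log2 difference was -6.49 ± 0.67 (adjusted p = 2.40e-07), but with 1 lec1-1 array under 100 its size depended on the treatment of low signals, from -8.22 with an offset of 1 to -5.19 with an offset of 200, and the lec1-1 signal did not differ from that of the same wild-type stage by the test (-0.15). In lec1-1 post-mature green seed M10 had 3694 and 713. M17, also a gene of the very late stage, was dim throughout, at 6.8 and 4.5 in lec1-1 mature green and 123 and 57.0 in wild-type post-mature green.

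Other LEA genes that were lower in the mutant than in late wild-type seed included bright ones. The dehydrin gene LEA (AT2G21490) had 6109 and 8311 in lec1-1 mature green and 47702 and 46673 in wild-type post-mature green (-2.72 ± 0.26), and was also lower than the 23832 and 15534 of wild-type mature green. LTI30, a dehydrin, had 504 and 298 against 2325 and 3284 in wild-type post-mature green (-2.68 ± 0.30). AtLEA4-1 had 11952 and 12203 in lec1-1 mature green and 42564 and 40448 in wild-type post-mature green (-1.78 ± 0.36), and 15136 and 7188 in wild-type mature green. AT3G15670 was lower by -2.09 ± 0.67 (adjusted p = 0.0164), and without either wild-type post-mature green array or without the first lec1-1 array its adjusted p was 0.0557 to 0.0999.

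For some LEA genes the difference from late wild-type seed did not pass while that from the matched stage did. They were picked out after their values were seen. LEA18 had 21383 and 21006 in lec1-1 mature green and 21812 and 17237 in wild-type post-mature green, and the groups overlapped. The difference was 0.13 ± 0.43 with a 95% interval of -0.77 to 1.02. In wild-type mature green LEA18 was at 2286 and 610, which made lec1-1 higher by 4.10 at the same stage. LEA4-5 had 7688 and 9007 in lec1-1 mature green, 13618 and 13002 in wild-type post-mature green and 1562 and 475 in wild-type mature green. AT4G36600 had 2825 and 2325 in lec1-1 mature green, 1426 and 1127 in wild-type post-mature green and 153 and 10.3 in wild-type mature green. The difference from wild-type post-mature green did not pass for LEA4-5 (-0.67 ± 0.44) or AT4G36600 (0.99 ± 0.42, adjusted p = 0.0622), while both were higher than wild-type mature green by 3.19 and 4.56.

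A last set of LEA genes was higher in the mutant than in late wild-type seed. DI21, a drought-induced gene, had 14634 and 10194 in lec1-1 mature green and 218 and 278 in wild-type post-mature green (5.37 ± 0.42, adjusted p = 6.40e-09), with 171 and 453 in wild-type mature green. AT1G54410, a small dehydrin gene, had 18740 and 10717 in lec1-1 mature green and 734 and 546 in wild-type post-mature green (4.38 ± 0.22). AT2G44060, a LEA gene of another class, had 2928 and 2721 in lec1-1 mature green and 392 and 458 in wild-type post-mature green (2.60 ± 0.16). The cold-regulated genes COR15A (1.37 ± 0.52) and COR47 (1.27 ± 0.44) also passed, although the arrays of COR47 overlapped between the groups. AT1G54410 and AT2G44060 were lower in wild-type post-mature green than in wild-type mature green, by -2.47 and -1.94.

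**Figure D3:**
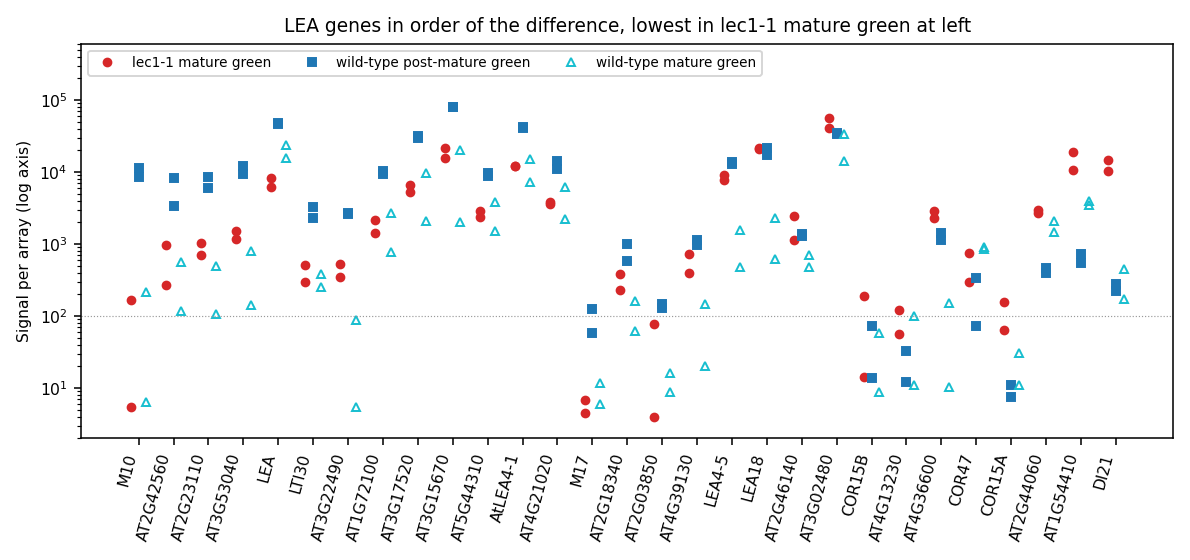
Signal per array (vertical, log axis) of the 29 tested LEA genes, ordered by the difference between lec1-1 mature green and wild-type post-mature green. Red circles are lec1-1 mature green, blue squares wild-type post-mature green and open triangles wild-type mature green, 2 arrays each, and the dotted line marks 100; red lies below blue for the 16 lower genes at the left, and DI21 and AT1G54410 at the right are at 10194 or more in lec1-1.

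Other late seed genes were lower in lec1-1 mature green. Of 8 listed late seed genes 3 were tested. All 3 were lower, with a median of -2.12, where 20.6% of all probe sets were lower. AT5G01300 had 4571 and 4874 in lec1-1 mature green and 29583 and 29606 in wild-type post-mature green (-2.64 ± 0.28). AT1G47980 had 2730 and 3105 in lec1-1 mature green and 11993 and 13364 in wild-type post-mature green (-2.10 ± 0.33), but was above the 1547 and 761 of wild-type mature green, a difference of 1.38 that passed. AT1G04560 differed by -2.12 ± 0.27 and was lower than wild-type mature green as well.

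Small heat shock proteins are chaperones that accumulate in late seed, and of 19 listed genes 6 were tested. Of these 3 were lower, where 20.6% of all probe sets were, and the other 3 did not pass. AT5G37670 had 66.0 and 13.7 in lec1-1 mature green and 689 and 516 in wild-type post-mature green, at least 5.96-fold lower when lec1-1 is taken at 100. AT1G54050 was at 189 and 182 against 1025 and 731 (-1.96 ± 0.68). AT1G53540 lost its call without any 1 of the 4 arrays (adjusted p up to 0.180), and AT1G54050 without any but the second wild-type post-mature green array (up to 0.115), so of the 3 only AT5G37670 passed without either lec1-1 array or without the first wild-type post-mature green array.

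Of 20 listed seed transcription regulators 4 were tested and 3 were lower, where 20.6% of all probe sets were. EEL, a bZIP factor of late seed genes, had 3508 and 3759 in lec1-1 mature green and 11036 and 10866 in wild-type post-mature green (-1.58 ± 0.22). BZIP53, a partner of such factors, had 2269 and 1725 against 3328 and 3649 (-0.80 ± 0.18). BBM, a regulator that promotes embryo identity, was at 13.6 and 10.4 in lec1-1 mature green and at 108 and 330 in wild-type post-mature green, at least 1.89-fold lower. AGL18, a MADS-box gene, overlapped between the groups (0.18 ± 0.23).

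Vacuolar processing enzymes cut storage proteins and other vacuolar precursors, and the family of 4 moved both ways. In it 1 was higher and 2 were lower, where 24.4% of all probe sets were higher and 20.6% lower. BETA-VPE, the main enzyme for storage proteins, had 5790 and 7328 in lec1-1 mature green and 31681 and 36583 in wild-type post-mature green (-2.38 ± 0.23). DELTA-VPE, which acts in the seed coat, had 8106 and 5553 in lec1-1 mature green and 419 and 478 in wild-type post-mature green (3.76 ± 0.24). In wild-type mature green DELTA-VPE was at 7390 and 11629, and that difference from lec1-1 did not pass. GAMMA-VPE was lower by -0.83 ± 0.29 (adjusted p = 0.0235), which became 0.158 without the second lec1-1 array and 0.198 without the first wild-type post-mature green array. ALPHA-VPE did not pass (-0.90 ± 0.41).

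Genes that use reserves after germination gave 2 lower of 3, where 20.6% of all probe sets were lower. SDP1, a lipase that starts oil breakdown, was lower by -1.42 ± 0.23, and AIM1, a peroxisomal enzyme of fatty acid breakdown, by -0.71 ± 0.15. ICL, isocitrate lyase of the glyoxylate cycle, was abundant in both groups on ATH1 and did not pass. It had 15139 and 11438 in lec1-1 mature green and 22932 and 18905 in wild-type post-mature green. GID1A, a gibberellin receptor, had 153 and 286 in lec1-1 mature green and 633 and 591 in wild-type post-mature green (-1.34 ± 0.24), and the receptors GID1B and GID1C did not pass. That made 1 of 3 gibberellin genes lower, a count too small to set apart from the 20.6% of all probe sets.

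Among the 12 largest lower differences of probe sets that name 1 gene, wild-type post-mature green seed stood far above both mature green groups. AT3G05260, of the short-chain dehydrogenase family, had 1648 and 1939 in lec1-1 mature green and 38419 and 42956 in wild-type post-mature green (-4.47 ± 0.71), with 9007 and 533 in wild-type mature green. AT1G75490, of the DREB family of transcription factors, had 612 and 431 in lec1-1 mature green, 13484 and 16086 in wild-type post-mature green and 4988 and 1402 in wild-type mature green (-4.71 ± 0.39 against wild-type post-mature green). AT1G75490 was thus lower in the mutant than in either wild-type stage. AT1G08170, a histone H2B gene, had 36.4 and 52.3 in lec1-1 mature green and 2182 and 1703 in wild-type post-mature green, at least 19.3-fold lower. LCR67, a plant defensin, had 829 and 312 in lec1-1 mature green and 16739 and 7698 in wild-type post-mature green (-4.34 ± 0.73), and in lec1-1 post-mature green it had 11913 and 5123.

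The others in this set had log2 differences between -4.13 and -4.75. They were AT5G55750, AT1G17010 of the 2-oxoglutarate-dependent oxygenases, AT5G65550 of the glycosyltransferases, AT1G30860, AT1G03990 of the fatty alcohol oxidases, AT3G58450 of the universal stress proteins and AT5G39520. AT1G17010 was near background in lec1-1 mature green, at 105 and 71.0, and had 3319 and 3560 in wild-type post-mature green, while wild-type mature green had 4.2 and 6.1.

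**Figure D4:**
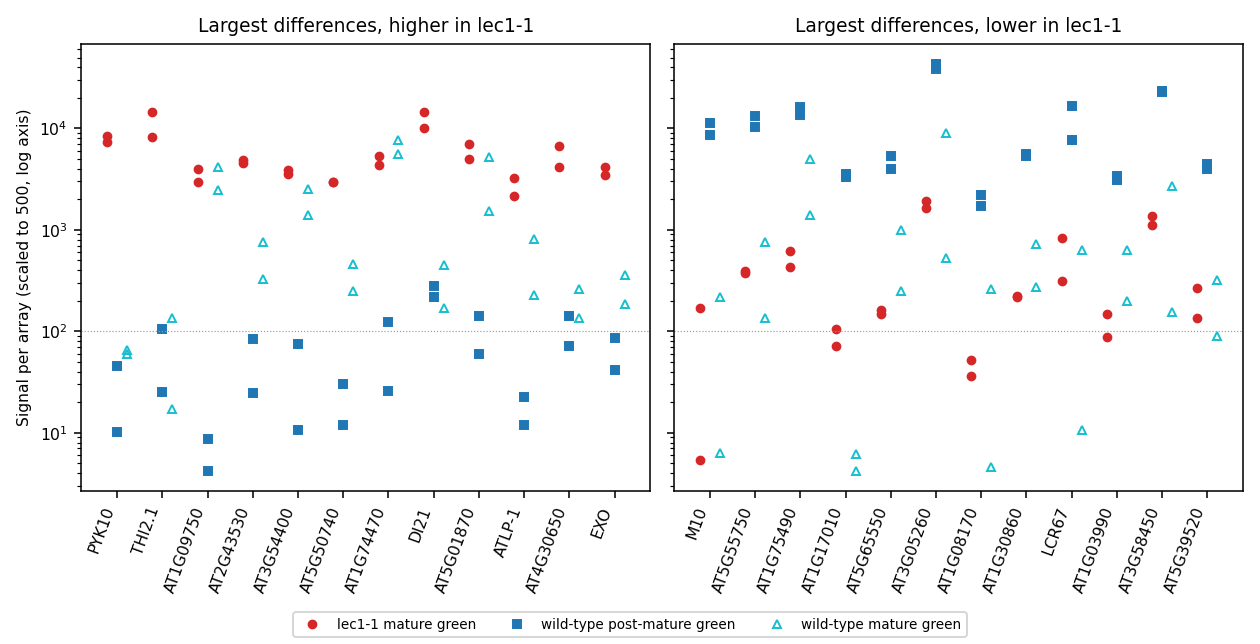
Signal per array (vertical, log axis) of the 12 genes with the largest higher differences (left panel) and the 12 with the largest lower differences (right panel). Red circles are lec1-1 mature green, blue squares wild-type post-mature green and open triangles wild-type mature green, 2 arrays each, and the dotted line marks 100; in the right panel the wild-type mature green arrays lie below wild-type post-mature green, and in the left panel those of AT1G09750 and AT1G74470 lie at the lec1-1 level.

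Photosynthesis genes were higher in lec1-1 mature green than in wild-type post-mature green, but in most cases lower than in wild-type mature green. Of 57 listed genes 11, all nuclear, were tested. Against wild-type post-mature green 8 were higher and 1 lower (24.4% and 20.6% over all probe sets), with a median of 2.01. Relative to wild-type mature green 7 were lower and 4 did not pass, with a median of -1.10 (5 lower without the second wild-type mature green array). Between the wild-type stages all 11 were lower at post-mature green, with a median of -3.69. Of all probe sets, 13% were lower in lec1-1 mature green than in wild-type mature green, and 19.1% were lower between the wild-type stages. PSBW, a subunit of photosystem II, had 4715 and 4464 in lec1-1 mature green, 210 and 317 in wild-type post-mature green and 5981 and 10347 in wild-type mature green (3.91 ± 0.22 against wild-type post-mature green). PSAE-1, a subunit of photosystem I, had 5443 and 3595 in lec1-1 mature green and 424 and 385 in wild-type post-mature green (3.30 ± 0.25). PSAN, also of photosystem I, had 679 and 850 against 18.3 and 51.2, at least 7.60-fold higher.

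The chloroplast ATP synthase gene ATPC1 was higher by 3.41 ± 0.27, and the Calvin cycle genes PRK by 2.01 ± 0.29 and SBPASE by 1.91 ± 0.24. The antenna genes LHCB4.1, LHCB4.2 and LHCB4.3 differed from the rest. LHCB4.3 was lower in lec1-1, at 571 and 532 against 1225 and 1536 in wild-type post-mature green (-1.24 ± 0.22). LHCB4.1 had 3777 and 2923 in lec1-1 mature green and 3728 and 5016 in wild-type post-mature green, and neither it nor LHCB4.2 passed. Near-identical antenna genes can share signal on an array.

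Of 16 listed chlorophyll synthesis genes 5 were tested. All 5 were higher, with a median of 3.77, where 24.4% of all probe sets were higher. AT1G74470, geranylgeranyl reductase, which makes the chlorophyll side chain, had 5360 and 4379 in lec1-1 mature green and 25.5 and 123 in wild-type post-mature green (5.42 ± 0.30, and 4.22 with an offset of 200), with 5630 and 7623 in wild-type mature green. LIL3:2, a light-harvesting-like protein needed by that enzyme, had 2382 and 2828 in lec1-1 mature green, 134 and 69.9 in wild-type post-mature green and 470 and 470 in wild-type mature green (4.16 ± 0.19 against wild-type post-mature green). So LIL3:2 was above both wild-type stages, by 2.35 at the matched one. PORB, protochlorophyllide oxidoreductase, was higher by 3.77 ± 0.27. The measured chlorophyll breakdown genes were also higher, NOL, a chlorophyll b reductase, by 1.59 ± 0.23 and AT1G44000, a STAY-GREEN-like gene, by 0.93 ± 0.19.

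Genes of the ER body and of jasmonate-linked defence were higher in lec1-1 mature green than in either wild-type stage. ER bodies are stores of defence enzymes in seedlings and roots. Of 20 listed genes 8 were tested. Against wild-type post-mature green 6 were higher (median 2.81, with 24.4% of all probe sets higher) and 2 did not pass. Against wild-type mature green 7 were higher (median 2.78), where 15.7% of all probe sets were. The median between the wild-type stages, post-mature green minus mature green, was 0.03. PYK10, the beta-glucosidase of ER bodies, had 8510 and 7278 in lec1-1 mature green and 10.2 and 45.4 in wild-type post-mature green, at least 78.7-fold higher. Wild-type mature green had 60.1 and 64.9, and wild-type seedlings had 17084 and 18279. THI2.1, a thionin induced by jasmonate, had 14634 and 8276 in lec1-1 mature green and 25.4 and 106 in wild-type post-mature green (6.67 ± 0.39, adjusted p = 1.54e-10). With 1 wild-type array of THI2.1 under 100, the size ran from 5.42 with an offset of 200 to 7.69 with an offset of 1. In seedlings THI2.1 was at 15.7 and 72.0.

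JAL34, a jacalin lectin found with PYK10, had 5169 and 4078 in lec1-1 mature green and 139 and 115 in wild-type post-mature green (4.72 ± 0.32). NAI2, which shapes ER bodies, was at least 6.54-fold higher, and NAI1, the regulator of their formation, at least 3.2-fold higher. JAL22, another lectin, was higher by 1.58 ± 0.36. JAL33 (0.82 ± 0.39) and the defensin PDF1.2 (0.43 ± 0.39) did not pass.

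The 12 largest higher differences, which include PYK10, THI2.1, DI21 and AT1G74470 above, held genes near the wild-type mature green level and genes above it. AT1G09750, of the aspartyl proteases, had 2943 and 4022 in lec1-1 mature green, 4.2 and 8.7 in wild-type post-mature green and 2450 and 4146 in wild-type mature green, so the mutant was at least 34.4-fold higher than the later wild-type stage and differed from the matched one by 0.11. AT3G54400, also of the aspartyl proteases, was at least 37.0-fold higher than wild-type post-mature green and 0.95 higher on the log2 scale than wild-type mature green. AT5G01870, of the lipid transfer proteins, had 7042 and 4948 in lec1-1 mature green and 59.7 and 140 in wild-type post-mature green (5.36 ± 0.41), with 1549 and 5227 in wild-type mature green.

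The remaining 5 were above both wild-type stages. AT2G43530, of the defensin-like proteins, had 4598 and 4905 in lec1-1 mature green, 24.4 and 83.5 in wild-type post-mature green and 326 and 762 in wild-type mature green. It was at least 47.5-fold above wild-type post-mature green. EXO, a growth-related gene known to respond to brassinosteroids, had 3509 and 4148 in lec1-1 mature green and 86.3 and 41.5 in wild-type post-mature green, at least 38.2-fold higher. AT5G50740, of the metal-binding proteins, was at least 29.7-fold higher, with a second, dimmer probe set of the gene higher by 3.91, and ATLP-1, a thaumatin-like protein, at least 26.5-fold higher. AT4G30650, of the cold- and salt-responsive membrane proteins, differed by 5.13 ± 0.43.

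Smaller families were read against the 24.4% of all probe sets that were higher and the 20.6% that were lower. Serine carboxypeptidases had 12 of 24 higher and the other 12 not passing, with a median of 0.62. In that family scpl35 had 5315 and 7852 in lec1-1 mature green and 404 and 151 in wild-type post-mature green (4.43 ± 0.31), and scpl26 differed by 3.30 ± 0.27. The autophagy family, which here is genes of ATG8, the protein that coats autophagosomes, and a related entry, had 7 of 9 lower and the other 2 not passing, with a median of -0.73. ATG8H had 1102 and 918 in lec1-1 mature green and 6876 and 5463 in wild-type post-mature green (-2.55 ± 0.27), and APG8H had 4873 and 3791 against 11388 and 12586 (-1.47 ± 0.19). Without the first wild-type post-mature green array only 3 of the autophagy genes passed, and 4 did in a fit of the 4 arrays alone.

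Of 14 cytochromes P450, 2 were higher and 6 lower. CYP71B37 had 241 and 322 in lec1-1 mature green and 4304 and 4705 in wild-type post-mature green (-3.79 ± 0.38). Of 10 glutathione transferases 3 were higher and 1 lower. GSTU20 had 2672 and 4563 in lec1-1 mature green, 160 and 277 in wild-type post-mature green and 2726 and 5107 in wild-type mature green, and GSTU27 was at least 9.41-fold above wild-type post-mature green. Of 6 WRKY factors 1 was higher and 2 lower, with WRKY22 at -0.98 ± 0.24.

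Cell wall genes gave a mixed picture. Expansins, which loosen walls, had 4 of 18 higher and 3 lower, a share near the background. EXPA20 had 638 and 718 in lec1-1 mature green and 59.3 and 26.2 in wild-type post-mature green, at least 6.77-fold higher. The wall-remodelling enzymes XTH16 and XTH19 were higher by 3.49 ± 0.35 and at least 6.29-fold. They were the 2 of 7 of their family that passed, a share near the 24.4% of all probe sets that were higher. Of 22 listed cell division genes 4 were tested and 3 were higher, where 24.4% of all probe sets were. TOPII, a topoisomerase of dividing cells, had 280 and 276 in lec1-1 mature green and 8.5 and 10.7 in wild-type post-mature green, at least 2.78-fold higher, and in wild-type mature green it had 255 and 326. PRL, a DNA replication licensing factor, was at least 5.24-fold higher. AUR1, a mitotic kinase, was higher by 1.48 ± 0.34, with an adjusted p of 0.0521 without the first wild-type post-mature green array.

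Flavonoid genes were higher in 2 of 4 cases, 1 of which, BAN, is given with the seed coat, where 24.4% of all probe sets were higher. UF3GT, an anthocyanin glycosyltransferase, had 294 and 202 in lec1-1 mature green and 19.9 and 32.5 in wild-type post-mature green, at least 2.44-fold higher, and was above wild-type mature green by 1.65. DFR, a shared enzyme of anthocyanin and tannin synthesis, had 1435 and 690 against 602 and 650 and did not pass (adjusted p = 0.0532; 0.00152 without the second lec1-1 array).

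The seed coat markers moved with the comparison. Of 16 listed seed coat markers 4 were measured. In lec1-1 mature green 3 were higher than in wild-type post-mature green, with a median of 1.14. Over all probe sets 24.4% were higher. Relative to wild-type mature green the median of the 4 markers was -0.38. Their summed signal was 11028 and 9355 in lec1-1 mature green, 2361 and 2546 in wild-type post-mature green and 11627 and 15986 in wild-type mature green. DELTA-VPE gave most of that sum in both mature green groups and ARA12 in wild-type post-mature green. AT3G50990, the marker that did not pass, was near background, under 100 on every array of these groups. BAN, an enzyme of tannin synthesis in the seed coat, had 424 and 495 in lec1-1 mature green and 184 and 59.3 in wild-type post-mature green (1.67 ± 0.33). ARA12, a subtilase, was higher by 0.62 ± 0.17, with an adjusted p of 0.115 without the second lec1-1 array. The part of the seed coat in the other differences was not tested.

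The 3 measured endosperm markers were dim, with summed signals of 209 and 176 in lec1-1 mature green and 68.7 and 259 in wild-type post-mature green, and IKU2, AGL80 and AGL62 had adjusted p of 0.202, 0.227 and 0.806. ALC, a gene of the silique wall, had 471 and 347 in lec1-1 mature green and 134 and 146 in wild-type post-mature green (1.26 ± 0.17). It was also higher than the 179 and 191 of wild-type mature green, by 0.95, a difference that passed. Its part in the other results was not tested. The trichome patterning gene TRY had 172 and 162 against 42.4 and 110 and did not pass.

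**Figure D5:**
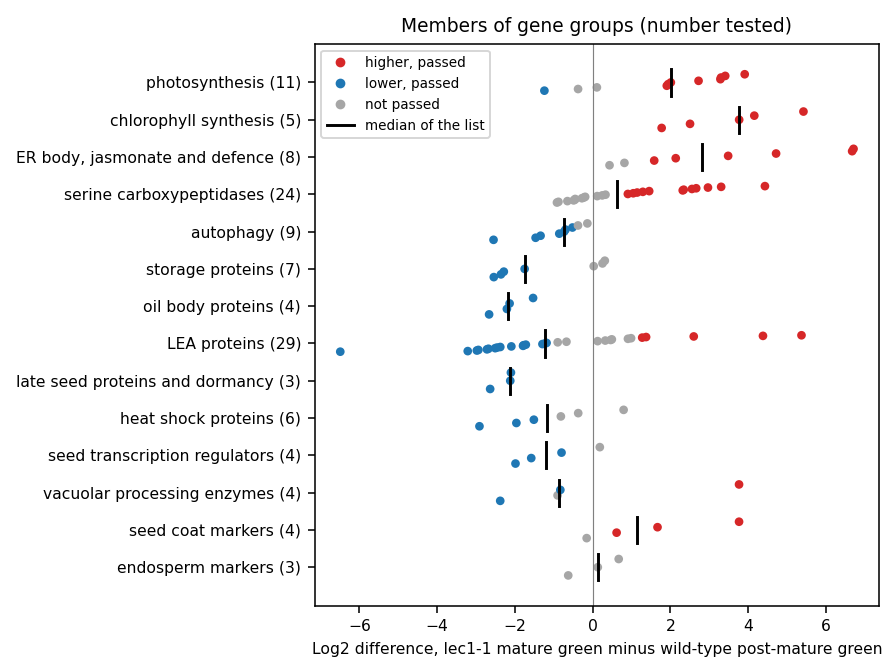
Log2 difference of lec1-1 mature green minus wild-type post-mature green (horizontal) for each tested member of 14 gene groups, with the number tested in brackets. Red points passed and were higher in lec1-1, blue passed and were lower, grey did not pass, and black bars are medians; photosynthesis and chlorophyll synthesis lie mostly to the right, and the oil body genes, 4 of 7 storage genes and 16 of 29 LEA genes to the left in blue.

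Some abundant genes stood at like levels in both groups, in the sense that the 95% interval of the difference lay inside 2-fold. AT2G23120, a small LEA-type gene, had 34730 and 22930 in lec1-1 mature green and 29268 and 29950 in wild-type post-mature green, with an interval of -0.80 to 0.66. AT3G07230, AT1G78040 and AT5G64400 had intervals of -0.24 to 0.68, -0.57 to 0.09 and -0.62 to 0.05. Passing the test did not prevent this: PRXR1, a peroxidase, was lower by -0.55 ± 0.19 and the ribosomal protein gene AT3G53740 higher by 0.49 ± 0.18. PRXR1 lost its call without the first lec1-1 or the second wild-type post-mature green array (adjusted p 0.158 and 0.113), and AT3G53740 without the first lec1-1 array or either wild-type post-mature green array (0.0624 to 0.171).

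A list of late wild-type genes was also taken from other arrays. On the older AtGenome1 GeneChip, wild-type seed at mid-maturation and at late maturation was each 1 sample on 2 technical arrays. How those stages map onto mature green and post-mature green is not given in the labels. The lists below therefore do not define the post-mature green state. Genes with each late array at least 2-fold above each mid array numbered 311, and 380 were at least 2-fold below. Of the late genes 270 were tested on ATH1, and of the early genes 336.

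In lec1-1 mature green against wild-type post-mature green, 165 of the 270 late genes were lower (61.1%) and 16 higher (5.93%), with a median of -1.10. Among the 2642 genes measured on both chips 20.6% were lower and 25.9% higher, with a median of 0.05. The median signal of the late genes was 556 in lec1-1 mature green, 1414 in wild-type post-mature green and 752 in wild-type mature green. Against wild-type mature green, 93 late genes were lower in lec1-1 and 24 higher, with a median of -0.39, where 13.5% of the genes on both chips were lower and 16.3% higher. Between the wild-type stages, post-mature green had 119 late genes higher (44.1%) and 26 lower (9.63%) than mature green. Of the genes on both chips 15.7% were higher and 19.5% lower. The late list thus also held genes that did not rise from mature green to post-mature green by the test. For 40 of the 270 late genes the interval of the difference from wild-type post-mature green lay inside 2-fold. That held for 805 of the 2642 genes on both chips, a larger share.

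The early genes went the other way. Of 336, 202 were higher in lec1-1 mature green than in wild-type post-mature green (60.1%) and 8 lower (2.38%), with a median of 0.97. In lec1-1, 92 early genes were higher and 33 lower than in wild-type mature green, where 16.3% and 13.5% of the genes on both chips were. The median signal of the early genes was 432 in lec1-1 mature green, 162 in wild-type post-mature green and 354 in wild-type mature green.

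Single late genes took different positions. The neighbouring genes AT1G14930, AT1G14940 and AT1G14950, of the major latex protein family, were among the strongest late genes on AtGenome1. On ATH1, AT1G14940 had 28115 and 21422 in lec1-1 mature green, 61216 and 58557 in wild-type post-mature green and 10412 and 318 in wild-type mature green. AT1G14930 had 12945 and 9029 in lec1-1 mature green, 33166 and 29627 in wild-type post-mature green and 3870 and 94.1 in wild-type mature green. AT1G14950 had 40730 and 29952 in lec1-1 mature green and 72199 and 75952 in wild-type post-mature green (-1.08 ± 0.51). The wild-type mature green arrays of AT1G14940 and AT1G14930 lay far apart. Both were higher in lec1-1 than in wild-type mature green, by 3.65 and 3.85, and neither passed against wild-type post-mature green (-1.28 ± 0.83 and -1.53 ± 0.83), although both did in a fit of the 4 arrays alone. Their sequences are related, and signal shared between them was not tested. On AtGenome1 these genes stood far lower in lec1 seed than in late wild-type seed, as given below. The thionin gene AT2G15010 was lower by -1.83 ± 0.31 and AT4G31830 by -1.85 ± 0.27, and both were also below wild-type mature green, by -0.98 and -1.41.

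Of the early genes, AT3G16370, of the GDSL lipases, had 1684 and 1439 in lec1-1 mature green and 116 and 11.5 in wild-type post-mature green (3.99 ± 0.35, and 2.77 to 5.35 over the other offsets), and AT2G14900, of the gibberellin-regulated proteins, differed by 3.17 ± 0.48. AT4G12890, of the GILT family of thiol reductases, was at least 1.96-fold higher. AT4G15390, of the acyltransferases, and GILT did not pass.

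AtGenome1 also held the same kind of contrast, lec1 seed at mid-maturation against wild-type seed at late maturation, 1 sample each on arrays that the ATH1 comparison did not use. The labels give no allele for this lec1 seed. With 1 sample a group there is no test, and a gene is counted where all its lec1 arrays lay on one side of all wild-type arrays. Of the 683 genes higher on ATH1, 60.8% were above on AtGenome1 and 10.5% below, where 30.7% of all 2642 were above and 30.9% below. Of the 544 genes lower on ATH1, 70.0% were below and 8.46% above. At a size of at least 2-fold, 23.7% of the genes higher on ATH1 were above and 1.32% below, 31.3% of those lower on ATH1 were below and 0.919% above, and 9.8% and 9.69% of all were above and below.

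On that chip low values were set to a floor of 250. The storage protein gene AT1G03890 was at 255 and 250 in lec1 mid-maturation seed and 144660 and 155402 in wild-type late-maturation seed. Mid-maturation wild-type seed was at the floor for AT1G03890, whereas wild-type mature green seed on ATH1 was among its high groups. EEL was at 1497 and 2042 in lec1, against 20173 and 19564 in late wild type, and BETA-VPE at 2102 and 2202 against 51681 and 46280. PSBW stood at 32221 and 34073 in lec1 and at 2125 and 2002 in late wild type, and DI21 at 13276 and 12875 against 2866 and 1834.

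Some genes differed between the chips, in direction, in the call or only in level. ICL, THI2.1, AT3G15670, AT1G14930, AT1G14940 and AT1G14950, given last, lay on the same side of late wild type on both chips. GAMMA-VPE was at 48484 and 51553 in lec1 on AtGenome1 and at 36063 and 37286 in late wild type, above it, while on ATH1 it was lower. FATB was at 4407 and 3702 in lec1, below the 7132 and 5729 of late wild type, while on ATH1 it was higher. ALPHA-VPE was at 15173 and 14670 in lec1 and at 2140 and 2186 in late wild type, while on ATH1 the lec1-1 signal was the lower one and the difference did not pass. ICL was at 1128 and 1061 in lec1 and far higher in late wild type, at 17256 and 18632, while on ATH1 it did not pass. THI2.1 was dim in lec1, at 491 and 425, with late wild-type seed at the floor, and mid-maturation wild-type seed had 8511 and 7803. The LEA gene AT3G15670 was at 44010 and 45602 in lec1 and at 92684 and 85061 in late wild type, with mid-maturation wild type at the floor. AT1G14940 was at the floor in lec1, at 250 and 250, against 126424 and 112510 in late wild type. AT1G14930 was at 367 and 250 in lec1 against 97771 and 91320 in late wild type. AT1G14950 was at 5325 and 5182 in lec1 against 117663 and 115789 in late wild type.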

How the data were processed

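RNA of seed was measured on Affymetrix GeneChips. The deposited ATH1 values are intensity values made by the authors with Microarray Suite 5.0 and scaled to 500, per the labels, and the AtGenome1 values are average-difference intensities from version 4.0, scaled to 2500. The labels of the AtGenome1 arrays name ATH1, whereas their titles and probe sets are those of AtGenome1. Names came from the annotation tables: 13513 of 22810 ATH1 probe sets named 1 gene.

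Differences were fitted with limma 3.58.1 in R 4.3.3 (lmFit, eBayes with trend) on log2(signal + 50), over all 20 ATH1 arrays in 10 groups, for probe sets with a signal of 100 on at least 2 arrays and controls left out. The threshold was a two-sided p of 0.05, adjusted by Benjamini and Hochberg's method over the 18459 probe sets. Errors share 1 estimate of spread over all groups, and 2 arrays a group limit precision. Where both arrays of a group were under 100, the fold is a bound, the other group's geometric mean over 100. AtGenome1 values were floored at 250. The fit was tested on simulated data.

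Genes were named by rule: the 12 largest passing differences each way, up to 4 members of each list and 2 of each family by adjusted p, the 8 late and 6 early AtGenome1 genes of largest size, and the 6 brightest with an interval inside 2-fold. Named outside it, after their values were seen, were LTI30, M17, COR15A, COR47, LEA18, LEA4-5, AT4G36600, PRK, SBPASE, LHCB4.1, LHCB4.2, LHCB4.3, NAI1, JAL33 and PDF1.2. The members and lists were chosen with earlier results of these data known. Most lists had a named probe set for only part of their genes, so a count covers the tested members and not the whole group. Replicate numbers did not pair the samples: the deviations of same-numbered arrays correlated at 0.03. Alternatives covered offset, floor, normalization, filter, array lot (whether the label states one), weights, replicate block and single arrays left out.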

Additional observations from a re-analysis of the deposited data

How the results depend on the processing

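The 8309 probe sets that passed between lec1-1 mature green and wild-type post-mature green stayed within 1.5 times that count under each alternative run. Leaving out 1 of the 4 arrays gave 6943 to 7639 (3840 to 4266 higher and 3103 to 3373 lower), and with the replicate block, though the numbers do not pair the samples (r = 0.03), it was 8383. The 5720 probe sets inside 2-fold were 3375 in a fit of the 4 arrays, 3656 with an offset of 1, 12321 with an offset of 200, 3671 with array weights and 4070 to 4432 with an array left out. Against wild-type mature green, lec1-1 mature green had 2974 with array lot as covariate, 3470 with array weights and 4076 to 5771 with an array left out, and the wild-type stages differed at 3774 with array weights and 4739 to 6711. Of the late AtGenome1 genes 12 to 23 were higher and 140 to 152 lower with an array left out, and of the early genes 183 to 192 higher and 7 to 10 lower. A 4-fold list gave 7 higher and 91 lower late genes and 73 higher and 1 lower early gene, and the fit of 4 arrays gave 1 lower early gene. The correlation with lec1-1 post-mature green was 0.963 with an offset of 200. List and family members that passed numbered 101 to 115 with an array left out, of 122. Medians near 0 turned: endosperm to -0.20 and expansins to 0.067 with array lot, and with an array left out the gibberellin genes ran from -0.74 to 0.29, endosperm from -0.39 to 0.65, expansins from -0.21 to 0.026, light-harvesting genes from -0.22 to 0.44 and the late embryogenesis annotation from -0.23 to 0.30. The cause was not tested.

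Of 119 named genes none reversed, and 0 to 8 lost their call under any one alternative. With an offset of 1 the calls of AT4G36700, AtLEA4-1, AT2G15010 and AT3G15670 were lost, with quantile normalization those of OLEO3, AT3G15670, GAMMA-VPE and PRXR1, with a floor of 100 those of EXLA2 and AT4G12890, and in the fit of 4 arrays those of AT1G44000 and ARA12 among others. The array lot covariate marked only whether the label of an array states a lot. The first wild-type post-mature green array states an array lot and the other 3 state none. Both wild-type mature green arrays state a lot, while both lec1-1 mature green arrays state none, so this split runs along the genotype in that comparison. With the covariate its passing probe sets went from 5297 to 2974. Where 1 array of a group was under 100, the size of a difference depended on the offset. Probe sets near a signal of 100 have little room above background, and 2 arrays a group limit every value.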

Other observations

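Plastid-encoded genes were grouped after the data had been seen. Of 69 tested, 60 were higher in lec1-1 mature green than in wild-type post-mature green and the other 9 did not pass, with a median log2 difference of 2.17, where 24.4% of all probe sets were higher. Without the first lec1-1 array or the second wild-type post-mature green array 49 were higher. The gene rpoA, a subunit of the plastid RNA polymerase, had signals of 16129 and 9308 in lec1-1 mature green, 474 and 348 in wild-type post-mature green and 1056 and 1413 in wild-type mature green. The gene rps19, of the plastid ribosome, differed by 3.88 ± 0.36, and matK, a plastid splicing factor, by 4.11 ± 0.33. The photosystem I gene psaB had 4468 and 4125 in lec1-1 mature green and 2514 and 2820 in wild-type post-mature green and did not pass. Against wild-type mature green 31 of the 69 were higher in lec1-1 (median 0.97), where 15.7% of all probe sets were.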
